A study of Ovis aries with 15 samples.

Results

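The genes described here are 10 antioxidant genes, chosen by name from the 31411 genes of a count table of fetal sheep liver. They are catalase (CAT), the superoxide dismutases SOD1 and SOD2, the glutathione peroxidases GPX1 and GPX4, both subunits of glutamate-cysteine ligase (GCLC and GCLM), glutathione reductase (GSR), thioredoxin reductase 1 (TXNRD1) and NFE2L2, which encodes the transcription factor NRF2. All 10 were among the 16977 genes that passed the filter on low counts. The liver came from fetuses at gestational day (GD) 100, 124 and 144, with 4, 5 and 6 libraries of poly(A)-selected RNA, and no treatment or genotype is given in the labels. Whether each library is a different fetus is not stated in the labels, so the p-values measure the spread between these libraries, which may be technical. The sample codes begin with different letters in different stages, so a difference of cohort and a difference of stage cannot be told apart.

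Superoxide is turned into hydrogen peroxide by superoxide dismutases, SOD1 in the cytosol and SOD2 in mitochondria. Catalase in peroxisomes and the glutathione peroxidases then remove peroxides, and the glutathione peroxidases consume glutathione that GSR restores with NADPH. Glutamate-cysteine ligase sets the pace of glutathione synthesis, TXNRD1 keeps thioredoxin reduced, and NRF2, which KEAP1 marks for degradation, switches on many of these genes. In the fetus the liver also makes blood cells, and red cells carry high levels of several of these enzymes.

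Library totals ran from 24215612 to 38247295 counts, and a floor of 3 counts lay between 0.0797 and 0.128 in counts-per-million units (CPM), which covers counting error only. All 10 hepatocyte markers examined were above this floor in every library, and their summed level was 49950 to 141300 CPM (GD100), 189600 to 219400 CPM (GD124) and 145700 to 189000 CPM (GD144). The summed level of 14 erythroid markers was lower in each later stage, with 4784 to 12180 CPM (GD100), 1932 to 3903 CPM (GD124) and 108 to 935 CPM (GD144). The upper end at GD144 was replicate 3, with the other 5 libraries between 108 and 168 CPM. Other marker lists were also counted between GD100 and GD144, where 27.1% of all genes tested were called higher and 27.9% lower. Higher were 7 of 8 macrophage markers (summed level 85.9 to 381 CPM, then 389 to 707 CPM), 6 of 8 endothelial markers (231 to 378 CPM, then 509 to 757 CPM) and 4 of 8 stellate and fibroblast markers, with 1 lower. Lower were all 12 cell cycle genes (1287 to 2939 CPM, then 75.4 to 318 CPM), 5 of 6 megakaryocyte markers, with 1 higher, and 5 of 8 granulocyte and myeloid progenitor markers. Of 5 lymphoid markers 1 was higher and 2 lower, and of 4 bile duct markers none was called. The part of these cell types in the changes described below was not tested. Of the genes with reads, 16.7 to 16.9% had a fractional count in GD100 replicates 2 to 4, against 8.32 to 10.04% in the other libraries. Fits with GD100 represented by replicate 1 alone were therefore made as well. Where they ended the printed call of a gene, this is stated below in most cases, for some genes without the value.

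Between GD100 and GD144 the 10 genes moved in different directions. CAT rose 2.87-fold, SOD2 2.08-fold and NFE2L2 1.47-fold. GPX1 fell to a level 12-fold lower, and GCLM (3.19-fold), GCLC (2.76-fold), TXNRD1 (2.11-fold) and GSR (1.77-fold) were also lower. SOD1 and GPX4 did not pass the test between these stages. In this comparison 8 of 10 genes were called, against 55.0% of all genes tested. Of these, 3 were higher, against 27.1% of all genes, and 5 lower, against 27.9%. The median log2 fold change of the 10 genes was -0.59, against 0.03 over all genes tested.

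From GD100 to GD124, 5 of the 10 genes were called, against 34.0% of all genes, 2 of them higher (against 16.6%) and 3 lower (against 17.4%). Those higher were CAT and NFE2L2, and those lower were GPX1, GCLC and TXNRD1. From GD124 to GD144 the test called 5 of the 10, against 27.5% of all genes, all 5 lower (against 15.4%) and none higher (against 12.1%). These 5 were SOD1, GPX1, GCLC, GCLM and GSR. A test for any difference between the 3 stages called 9 of 10 genes, all but GPX4, against 56.3% of all genes.

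**Figure D1:**
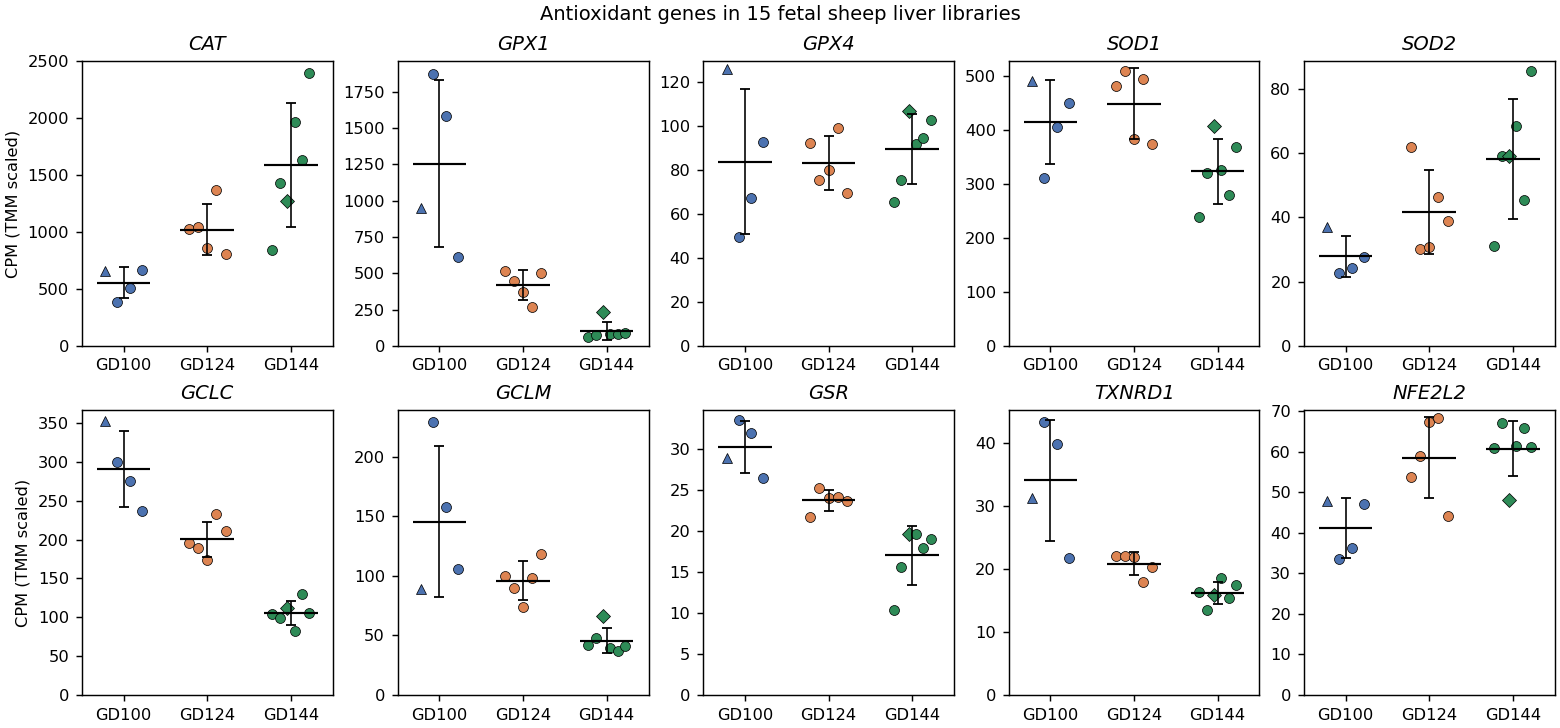
Level of each of the 10 antioxidant genes in each library, in counts-per-million units (TMM scaled), by gestational stage; black bars are means and error bars SDs (n = 4, 5 and 6), triangles mark GD100 replicate 1 and diamonds GD144 replicate 3. CAT climbs from 385 to 666 CPM at GD100 to 846 to 2401 CPM at GD144, while GPX1 drops from 615 to 1871 CPM to 63.9 to 231 CPM.

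The superoxide dismutases differed from each other. SOD1, the cytosolic copper and zinc enzyme, was at 492, 312, 407 and 451 CPM in GD100 replicates 1 to 4 and at 483, 511, 384, 496 and 374 CPM in GD124 replicates 1 to 5. At GD144 its 6 libraries ran from 240 to 408 CPM with a median of 324 CPM. The 3 ranges overlapped, and 5 of the 6 GD144 libraries lay below every GD124 library. The SOD1 means were 415 ± 77.2 (SD, n = 4), 449.5 ± 65.2 (SD, n = 5) and 324 ± 60.2 CPM (SD, n = 6).

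SOD1 was lower at GD144 than at GD124 with a log2 difference of -0.47 ± 0.16 (SE, edgeR adjusted p = 0.0408). That call ended in 11 of 25 alternatives, among them the fit with no filter on low counts (adjusted p = 0.0831) and the fits that leave out GD144 replicate 1 (log2 fold change -0.37, adjusted p = 0.104), GD144 replicate 2, 4 or 5, GD124 replicate 1, 2 or 4, or GD100 replicate 3 or 4. Between GD100 and GD124 the SOD1 log2 fold change was 0.12 ± 0.18 (SE, edgeR adjusted p = 0.657), and between GD100 and GD144 it was -0.36 ± 0.17 (SE, edgeR adjusted p = 0.0914). The last of these passed the threshold in 4 of 25 alternatives. They were library totals as the only scaling (adjusted p = 0.0178), DESeq2 (adjusted p = 0.0467), and the fits without GD100 replicate 2 (adjusted p = 0.0322) or GD144 replicate 3 (adjusted p = 0.0496).

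SOD2, the mitochondrial manganese enzyme, was at 36.9, 22.6, 24.3 and 27.7 CPM in GD100 replicates 1 to 4. In GD124 replicates 1 to 5 it was at 61.9, 30.1, 30.8, 46.5 and 39.0 CPM, and at GD144 it ran from 31.1 to 85.5 CPM with a median of 59.1 CPM. GD100 replicate 1, the highest of its stage, lay above GD144 replicate 1, the lowest of that stage, so even these ranges overlapped. The SOD2 means were 27.9 ± 6.39 (SD, n = 4), 41.7 ± 13.2 (SD, n = 5) and 58.2 ± 18.7 CPM (SD, n = 6).

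SOD2 rose from GD100 to GD144 by 1.06 ± 0.26 on the log2 scale (SE, edgeR adjusted p = 0.00279). With GD100 represented by replicate 1 alone the SOD2 value was 0.67 and not called (adjusted p = 0.291). Neither step alone passed the test, with log2 fold changes of 0.58 ± 0.27 (SE, edgeR adjusted p = 0.106) to GD124 and 0.48 ± 0.24 (SE, edgeR adjusted p = 0.152) from GD124 to GD144. Without GD144 replicate 1 the latter was 0.64 and passed (adjusted p = 0.0379).

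Among the enzymes that remove peroxides, CAT rose and GPX1 fell. CAT was at 661, 385, 508 and 666 CPM in GD100 replicates 1 to 4 and at 1024, 1046, 857, 1373 and 805 CPM in GD124 replicates 1 to 5. At GD144 it ran from 846 to 2401 CPM with a median of 1533 CPM. Every library of both later stages lay above every GD100 library, while the GD124 and GD144 ranges overlapped. The CAT means were 555 ± 135 (SD, n = 4), 1021 ± 223 (SD, n = 5) and 1592 ± 544 CPM (SD, n = 6).

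CAT rose from GD100 to GD124 by 0.88 ± 0.27 on the log2 scale (SE, edgeR adjusted p = 0.0209), or 1.84-fold. That call ended without GD100 replicate 2 (adjusted p = 0.0722), without GD100 replicate 3 (adjusted p = 0.0629), without GD124 replicate 4 (adjusted p = 0.0556), and with GD100 represented by replicate 1 alone (log2 fold change 0.63, adjusted p = 0.344). From GD124 to GD144 the CAT log2 fold change of 0.64 ± 0.25 missed the threshold (SE, edgeR adjusted p = 0.0625), and 8 alternatives brought it past, such as DESeq2 (adjusted p = 0.0239) and the fit without GD144 replicate 1 (0.80, adjusted p = 0.0141). Over both steps CAT rose by 1.52 ± 0.27 (SE, edgeR adjusted p = 0.000184), which held in each of the 25 alternatives. The hepatocyte marker sum rose from GD100 to GD124 as well, and set against it CAT per 1000 CPM of those markers was 4.71 to 10 CPM (GD100), 3.91 to 6.83 CPM (GD124) and 5.81 to 12.7 CPM (GD144). From GD124 to GD144, 2 of the 10 markers were called higher (against 12.1% of all genes) and 1 lower (against 15.4%). ALB and AHSG had the highest levels, with GD144 means of 66330 and 65370 CPM. AHSG was lower in every GD144 library than in every GD124 library, though not called (edgeR adjusted p = 0.12).

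GPX1, the cytosolic glutathione peroxidase, was at 948, 1871, 1586 and 615 CPM in GD100 replicates 1 to 4 and at 517, 446, 368, 270 and 503 CPM in GD124 replicates 1 to 5. The 6 GD144 libraries ran from 63.9 to 231 CPM with a median of 83.3 CPM. No stage overlapped another. The GPX1 means were 1255 ± 575 (SD, n = 4), 421 ± 103 (SD, n = 5) and 104 ± 62.7 CPM (SD, n = 6), and the last was 78.8 ± 9.44 CPM (SD, n = 5) without replicate 3.

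GPX1 fell at both steps, by 1.58 ± 0.38 on the log2 scale to GD124 (SE, edgeR adjusted p = 0.00534) and by 2.01 ± 0.35 from GD124 to GD144 (SE, edgeR adjusted p = 0.00053). Over the whole span the GPX1 change was -3.59 ± 0.38 (SE, edgeR adjusted p = 1.19e-06), and it was the gene with the 664th lowest log2 fold change of the 16977 tested. With GD100 represented by replicate 1 alone the first step was -1.17 and not called (adjusted p = 0.153), while the calls of the later step and of the whole span held in each of the 25 alternatives.

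At GD100 and GD144 the libraries with the most GPX1 were also those with the most erythroid marker RNA. At GD100 these were replicates 2 and 3, with erythroid sums of 12180 and 9390 CPM against 5481 and 4784 CPM in replicates 1 and 4. At GD144 this was replicate 3 alone, with 231 CPM of GPX1 and an erythroid sum of 935 CPM. Among the other GD144 libraries the orders differed. Replicate 6 had more GPX1 than replicate 1 (87.8 against 63.9 CPM) and a lower erythroid sum (126 against 160 CPM). At GD124 the order differed as well, since replicate 5 had the highest erythroid sum (3903 CPM) and replicate 1 the highest GPX1. GPX1 per CPM of erythroid markers was 0.128 to 0.173 (GD100), 0.129 to 0.222 (GD124) and 0.247 to 0.76 (GD144), so the marker sum fell more than GPX1 in the last step. By how much depends on the markers summed. In that step their log2 fold changes ran from -2.10 (ANK1) to -4.06 (AHSP), against -2.01 for GPX1. The part of the erythroid RNA in the GPX1 change was not tested, and in bulk tissue fewer cells of a type and less RNA per cell cannot be told apart.

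**Figure D2:**
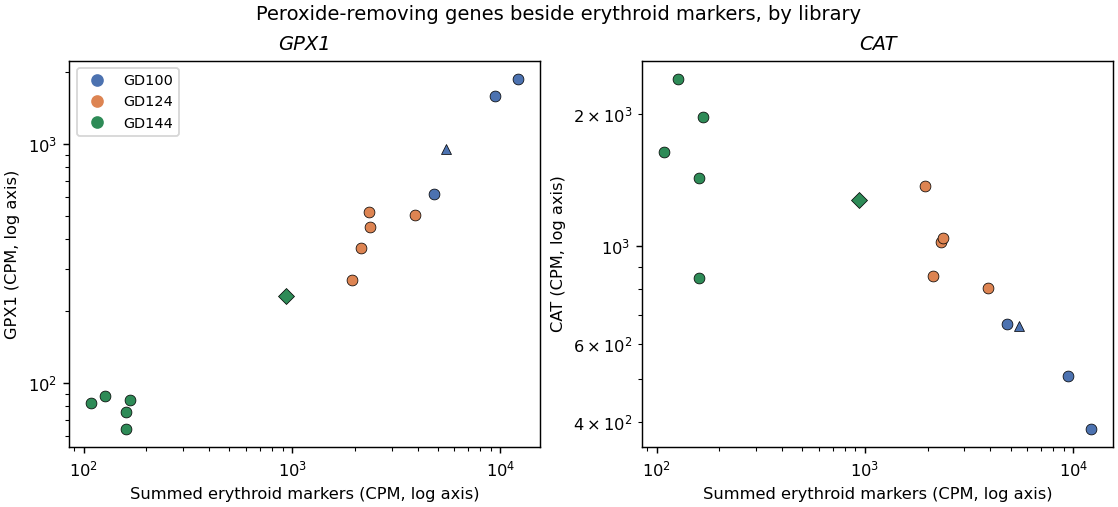
GPX1 and CAT levels in each library against the summed level of 14 erythroid marker genes, all in counts-per-million units on log axes, coloured by stage; the triangle is GD100 replicate 1 and the diamond GD144 replicate 3. GD144 replicate 3 (935 CPM of erythroid markers, 231 CPM of GPX1) sits apart from the 5 other GD144 libraries, which have 108 to 168 CPM of the markers and 63.9 to 87.8 CPM of GPX1.

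GPX4, the peroxidase that reduces lipid peroxides in membranes, kept to one range. It was at 126, 49.6, 67.0 and 92.4 CPM in GD100 replicates 1 to 4, at 92.1, 75.3, 79.6, 98.9 and 69.3 CPM in GD124 replicates 1 to 5, and at 65.3 to 107 CPM at GD144 with a median of 92.9 CPM. Both the highest and the lowest of the 15 values were in GD100 libraries. The GPX4 log2 fold change from GD100 to GD144 was 0.10 ± 0.21 (SE, edgeR adjusted p = 0.731), and the test for any stage difference gave an adjusted p of 0.871. A p of this size does not show that the GPX4 levels were equal.

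Both subunits of glutamate-cysteine ligase were lower at GD144. GCLC, the catalytic subunit, was at 353, 299, 275 and 237 CPM in GD100 replicates 1 to 4 and at 196, 189, 174, 233 and 211 CPM in GD124 replicates 1 to 5. In the GD144 libraries it ran from 82.5 to 130 CPM with a median of 105 CPM. No stage overlapped another, although GD100 replicate 4 and GD124 replicate 4 were close. The GCLC means were 291 ± 48.7 (SD, n = 4), 200.4 ± 22.3 (SD, n = 5) and 105 ± 15.4 CPM (SD, n = 6).

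GCLC fell by 0.54 ± 0.15 on the log2 scale to GD124 (SE, edgeR adjusted p = 0.0122) and by 0.93 ± 0.14 from GD124 to GD144 (SE, edgeR adjusted p = 0.000143). The GCLC change over the whole span was -1.46 ± 0.14 (SE, edgeR adjusted p = 5.15e-07). All 3 GCLC calls held in each of the 25 alternatives, including the one with GD100 represented by replicate 1 alone, where the first step was -0.82.

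GCLM, the modifier subunit that raises the activity of GCLC, was at 88.7, 229, 158 and 106 CPM in GD100 replicates 1 to 4 and at 99.5, 89.8, 74.1, 98.5 and 118 CPM in GD124 replicates 1 to 5. At GD144 it ran from 37.2 to 66.0 CPM with a median of 41.5 CPM, and replicate 3 was the highest. GD100 replicates 1 and 4 lay within the GD124 range, while all GD144 libraries lay below all others. The GCLM means were 145 ± 63.3 (SD, n = 4), 96.1 ± 16.1 (SD, n = 5) and 45.6 ± 10.6 CPM (SD, n = 6).

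GCLM fell by 1.08 ± 0.22 on the log2 scale from GD124 to GD144 (SE, edgeR adjusted p = 0.00172) and its change over the whole span was -1.67 ± 0.23 (SE, edgeR adjusted p = 1.52e-05). With GD100 represented by replicate 1 alone the GCLM change over the whole span was -0.95 (adjusted p = 0.011). From GD100 to GD124 the GCLM log2 fold change of -0.60 ± 0.24 was not called (SE, edgeR adjusted p = 0.0657), and that depended on the scaling, the tool and the libraries. With library totals alone GCLM was called at -0.81 (adjusted p = 0.0245), and DESeq2 called it at -0.65 (adjusted p = 0.0368). Without GD100 replicate 1 it was -0.77 (adjusted p = 0.0183), without GD100 replicate 4 -0.75 (adjusted p = 0.0293), and with GD100 replicate 1 alone 0.11 (adjusted p = 0.815).

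The reductases that restore glutathione and thioredoxin were lower at GD144 too. GSR was at 28.9, 33.5, 31.9 and 26.5 CPM in GD100 replicates 1 to 4 and at 21.7, 25.3, 23.97, 24.1 and 23.6 CPM in GD124 replicates 1 to 5. Its GD144 values ran from 10.4 to 19.6 CPM with a median of 18.5 CPM. No stage overlapped another. The GSR means were 30.2 ± 3.15 (SD, n = 4), 23.7 ± 1.30 (SD, n = 5) and 17 ± 3.59 CPM (SD, n = 6).

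GSR fell from GD124 to GD144 by 0.48 ± 0.14 on the log2 scale (SE, edgeR adjusted p = 0.0194) and over the whole span by 0.83 ± 0.15 (SE, edgeR adjusted p = 0.00021). The first step of -0.35 ± 0.16 was not called (SE, edgeR adjusted p = 0.0988) although the libraries did not overlap. It passed with library totals as the only scaling (-0.54, adjusted p = 0.015) and without GD144 replicate 1 (adjusted p = 0.0167), the library with the lowest GSR.

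TXNRD1, the cytosolic thioredoxin reductase, was at 31.3, 43.4, 39.9 and 21.8 CPM in GD100 replicates 1 to 4 and at 22.1, 22.0, 22.0, 17.9 and 20.3 CPM in GD124 replicates 1 to 5. At GD144 it ran from 13.5 to 18.6 CPM with a median of 16.1 CPM. GD100 replicate 4 lay among the GD124 libraries, and every GD144 library lay below every GD100 library. The TXNRD1 means were 34.1 ± 9.64 (SD, n = 4), 20.9 ± 1.80 (SD, n = 5) and 16.2 ± 1.76 CPM (SD, n = 6).

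TXNRD1 fell by 0.71 ± 0.17 on the log2 scale to GD124 (SE, edgeR adjusted p = 0.0042) and by 1.08 ± 0.16 to GD144 (SE, edgeR adjusted p = 2.74e-05). Between GD124 and GD144 its log2 fold change was -0.37 ± 0.15 (SE, edgeR adjusted p = 0.081), and 3 alternatives brought that step past the threshold, such as the fit of these 2 stages alone (adjusted p = 0.0144). In the RefSeq annotation of ARS-UI_Ramb_v3.0 the TXNRD1 gene overlaps a pseudogene and EID3, a protein-coding gene at 2.40 to 10.8 CPM here. Whether counting used the strand is not given in the sources used here, so TXNRD1 values are uncertain to that extent.

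NFE2L2 rose over the span in which GCLC, GCLM, GSR and TXNRD1, known targets of its product, fell. It was at 48.0, 33.6, 36.4 and 47.1 CPM in GD100 replicates 1 to 4 and at 53.9, 59.1, 67.3, 68.3 and 44.3 CPM in GD124 replicates 1 to 5. At GD144 it ran from 48.2 to 67.1 CPM with a median of 61.3 CPM, replicate 3 being the lowest. All GD144 libraries lay above all GD100 libraries, the nearest pair being GD144 replicate 3 and GD100 replicate 1, and GD124 replicate 5 lay within the GD100 range. The NFE2L2 means were 41.3 ± 7.33 (SD, n = 4), 58.6 ± 9.98 (SD, n = 5) and 60.8 ± 6.70 CPM (SD, n = 6).

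NFE2L2 rose by 0.51 ± 0.15 on the log2 scale to GD124 (SE, edgeR adjusted p = 0.019) and by 0.56 ± 0.15 to GD144 (SE, edgeR adjusted p = 0.00449), and between GD124 and GD144 the log2 fold change was 0.05 ± 0.14 (SE, edgeR adjusted p = 0.813). With GD100 represented by replicate 1 alone neither rise was called, at 0.29 (adjusted p = 0.419) and 0.35 (adjusted p = 0.248). The rise to GD124 was also not called without GD100 replicate 2 (adjusted p = 0.0788), without GD100 replicate 3 (adjusted p = 0.0743), or with library totals as the only scaling (adjusted p = 0.085). NFE2L2 overlaps a pseudogene and a long noncoding RNA gene, LOC132659203, in ARS-UI_Ramb_v3.0, and the latter was at 0.632 to 5.32 CPM here.

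**Figure D3:**
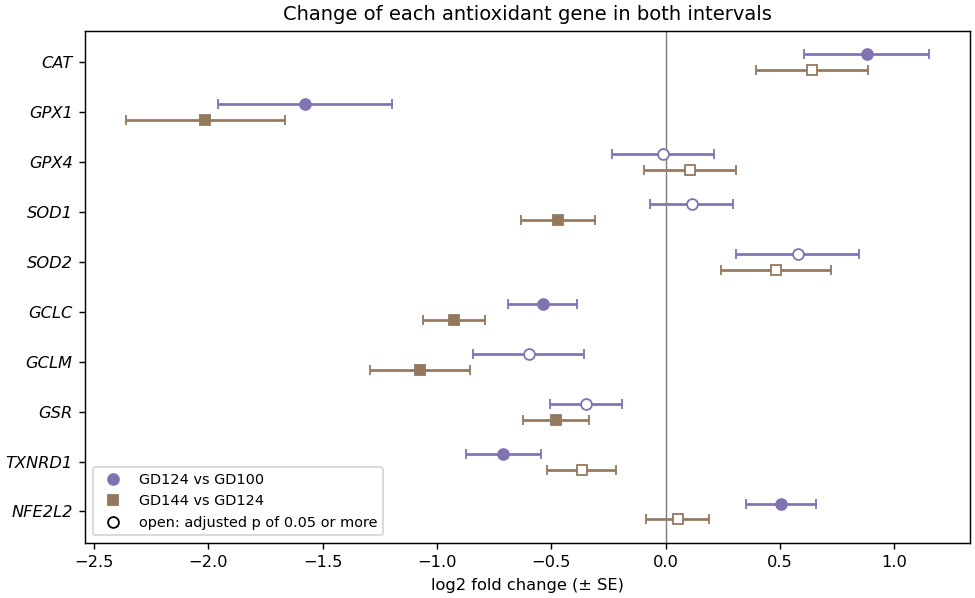
Log2 fold change of each of the 10 antioxidant genes from GD100 to GD124 (circles) and from GD124 to GD144 (squares), with its standard error as a bar; filled points passed the edgeR test at an adjusted p of 0.05 and open points did not. GPX1 lies farthest to the left in both steps, at -1.58 and -2.01, and CAT farthest to the right, at 0.88 and 0.64.

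Libraries of compared stages did not overlap for 4 of the 10 genes between GD100 and GD124, against 24.3% of all genes (CAT higher, against 11.6%, and GPX1, GCLC and GSR lower, against 12.6%). Between GD124 and GD144 they did not overlap for GPX1, GCLC, GCLM and GSR, 4 of 10 against 18.8% of all genes. All 4 were lower (against 11.0%) and none higher (against 7.81%). Between GD100 and GD144 they did not overlap for 7 of 10 genes, against 40.0% of all genes. The 2 genes higher in every library were CAT and NFE2L2, against 19.2% of all genes, and the 5 lower in every library were GPX1, GCLC, GCLM, GSR and TXNRD1, against 20.8%.

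Whether the change per step differed between both steps was tested for each gene. No gene of the 10 was called, against 5.90% of all genes tested, with edgeR adjusted p between 0.242 and 0.92. At an unadjusted p under 0.05 the count was also 0 of 10, and DESeq2 called 0. SOD1 had the lowest unadjusted p, 0.0638, with a difference of -0.59 ± 0.30 (SE) on the log2 scale.

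Ratios of a pair of members within a library do not depend on how libraries are scaled, and 4 were compared between stages with exact two-sided permutation tests, adjusted over the 12 tests. The number of CAT reads per GPX1 read was 0.206 to 1.08 at GD100 and 1.6 to 5.09 at GD124. At GD144 it was 5.52 in replicate 3 and 13.2 to 27.3 in the other libraries. No stage overlapped another, and the mean ratio was 5.19-fold higher at GD124 than at GD100 (exact p = 0.00794, adjusted p = 0.0136), the smallest p that 4 against 5 libraries allow. From GD124 to GD144 it was 6.58-fold higher (exact permutation p = 0.00433, adjusted p = 0.00952). Over the whole span it was 34.1-fold higher (exact permutation p = 0.00476, adjusted p = 0.00952), the smallest p for 4 against 6 libraries.

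The ratio of GPX4 to GPX1 was 2.93-fold higher at GD124 than at GD100, with overlap (exact permutation p = 0.0159, adjusted p = 0.0239). That call was lost when GD100 replicate 1, 2 or 3 or GD124 replicate 1, 2, 3 or 4 was left out. At GD144 the ratio of GPX4 to GPX1 was 13.7-fold higher than at GD100 with no overlap (exact permutation p = 0.00476, adjusted p = 0.00952). The ratio of SOD2 to SOD1 was 1.93-fold higher at GD144 than at GD124 (exact permutation p = 0.00216, adjusted p = 0.00952) and 2.59-fold higher at GD144 than at GD100 (exact permutation p = 0.00476, adjusted p = 0.00952), again without overlap. For SOD2 to SOD1 the difference between GD100 and GD124, 0.43 on the log2 scale, was not called (exact permutation p = 0.103, adjusted p = 0.137). The ratio of GCLC to GCLM, the subunits of 1 enzyme, overlapped between all stages and differed by 0.14 on the log2 scale between GD100 and GD144 (exact permutation p = 0.686, adjusted p = 0.748). Within GD100 that ratio alone ran from 1.3 in replicate 2 to 3.98 in replicate 1.

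**Figure D4:**
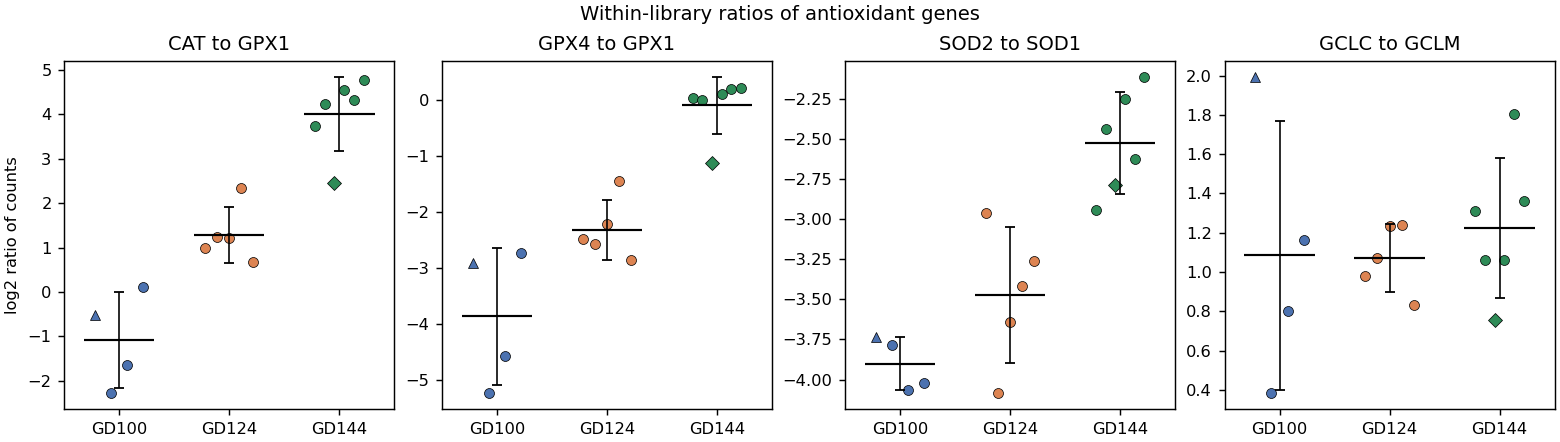
Log2 ratio of the counts of 2 members within each library (0.5 added to each count), by stage, with the mean as a black bar and the SD as an error bar (n = 4, 5 and 6); the triangle is GD100 replicate 1 and the diamond GD144 replicate 3. CAT to GPX1 climbs in each stage, with means of -1.08, 1.29 and 4.01, while GCLC to GCLM overlaps between all stages.

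Other genes of the same pathways were counted in 10 lists, here for GD144 against GD100 unless another comparison is named. Read against the 27.1% of all genes called higher and the 27.9% called lower, most lists held genes of both directions. Values are log2 fold changes with SE from the edgeR fit.

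Of 6 other superoxide dismutase and glutathione peroxidase genes 3 rose and none fell, with a median log2 fold change of 0.71. GPX3, the peroxidase secreted into plasma, rose by 2.52 ± 0.54 (edgeR adjusted p = 0.000954), and GPX7, a peroxidase of the endoplasmic reticulum, rose by 1.17 ± 0.27 (edgeR adjusted p = 0.00172). The third was SOD3, the extracellular dismutase, at 1.43 ± 0.26 (edgeR adjusted p = 0.000179), which is named after its value was seen. With GD100 represented by replicate 1 alone the calls of GPX3 and SOD3 were lost, with GPX3 at 2.24.

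Among 7 peroxiredoxin genes 2 rose and 3 fell. PRDX2, a cytosolic peroxiredoxin that is abundant in red cells, had means of 679 ± 311 (SD, n = 4), 287 ± 47.1 (SD, n = 5) and 87.3 ± 31.9 CPM (SD, n = 6). It fell at both steps without overlap, although the first step, -1.24, was -0.37 and not called with GD100 represented by replicate 1 alone (adjusted p = 0.539). Over the whole span PRDX2 fell by 2.96 ± 0.30 (edgeR adjusted p = 6.23e-07). PRDX6, which also acts on phospholipid peroxides, went the other way, at 45.5 ± 6.09 (SD, n = 4), 52.8 ± 11.5 (SD, n = 5) and 97.9 ± 19.1 CPM (SD, n = 6), a rise of 1.11 ± 0.18 (edgeR adjusted p = 6.83e-05).

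Among 11 thioredoxin and glutaredoxin genes 5 rose and 3 fell, and with library totals as the only scaling 2 rose and 3 fell. Of all genes that scaling called 3961 higher and 5149 lower, against 4603 and 4739 in the full fit. TXNIP, which binds and inhibits thioredoxin, rose by 2.14 ± 0.27 (edgeR adjusted p = 5.42e-06), while TXN, thioredoxin itself, fell by 0.67 ± 0.17 (edgeR adjusted p = 0.00328). The mitochondrial reductase TXNRD2 fell by 2.46 ± 0.21 (edgeR adjusted p = 1.37e-07) and GLRX5, which serves iron-sulfur cluster assembly in mitochondria, by 3.10 ± 0.26 (edgeR adjusted p = 1.2e-07). GLRX, cytosolic glutaredoxin, rose from GD124 to GD144 by 0.75 ± 0.27 (edgeR adjusted p = 0.0464), a call that ended in 12 alternatives, such as the fit without GD124 replicate 4 (0.63, adjusted p = 0.114).

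Of 10 tested genes of glutathione synthesis and turnover 2 rose and 5 fell, with a median of -0.74. CHAC2, which degrades glutathione, fell by 3.97 ± 0.40 (edgeR adjusted p = 1.11e-06), from 32.6 ± 13.8 (SD, n = 4) to 2.06 ± 1.41 CPM (SD, n = 6). GSS, the second enzyme of synthesis, was lower at GD144 than at GD100 by -0.37 ± 0.14 (edgeR adjusted p = 0.0306). That call ended in several alternatives, such as the fit without GD100 replicate 3 (-0.28, adjusted p = 0.136) and GD100 replicate 1 alone (-0.135). At GD144 GSS was also lower than at GD124, by -0.52 ± 0.13 (edgeR adjusted p = 0.0074). GGACT, which acts on breakdown products of protein crosslinks, rose from GD100 to GD124 by 1.03 ± 0.25 (edgeR adjusted p = 0.00559), a call lost with GD100 replicate 1 alone. SLC7A11, a subunit of the cystine carrier, was too low to test, at 0.0699 to 0.726 CPM at GD100 and at or under the floor in 5 of the 6 GD144 libraries.

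In the NRF2 control list of 13 genes 7 rose and 4 fell, and with GD100 represented by replicate 1 alone 6 rose and 2 fell. KEAP1 was at 89.4 ± 10.4 (SD, n = 4), 61.1 ± 1.95 (SD, n = 5) and 55.2 ± 5.38 CPM (SD, n = 6), and it was lower at GD144 than at GD100 by -0.69 ± 0.11 (edgeR adjusted p = 4.24e-05). MAFF, one of the small MAF proteins that pair with NRF2 on DNA, rose by 3.82 ± 0.39 (edgeR adjusted p = 7.68e-07), while MAFG, another, was lower by -1.50 ± 0.31 (edgeR adjusted p = 0.000627), a call lost with GD100 replicate 1 alone (-0.19, adjusted p = 0.53). BTRC, part of a KEAP1-independent route of NRF2 degradation, was lower by -1.85 ± 0.24 (edgeR adjusted p = 6.59e-06).

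Of 11 other known NRF2 target genes 3 rose and 6 fell, with a median of -0.70. BLVRB, a biliverdin reductase abundant in red cells, had the deepest fall, by 3.75 ± 0.34 (edgeR adjusted p = 2.73e-07). HMOX1, which breaks down heme, rose by 1.21 ± 0.25 (edgeR adjusted p = 0.000546), and ABCC2, a canalicular export pump, by 1.19 ± 0.20 (edgeR adjusted p = 9.12e-05), and both calls were lost with GD100 represented by replicate 1 alone. NQO1, a quinone reductase often used as an NRF2 readout, was at 6.96 ± 4.61 (SD, n = 4), 11.7 ± 3.60 (SD, n = 5) and 8.99 ± 2.66 CPM (SD, n = 6), and its change over the whole span, 0.37 ± 0.35, was not called (edgeR adjusted p = 0.392). Without GD100 replicate 1 the NQO1 change was 0.95 and called (adjusted p = 0.0151), and with that library alone at GD100 it was -0.61.

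The NADPH list held 15 genes, of which 2 rose and 7 fell, and none rose and 6 fell with GD100 represented by replicate 1 alone. RPIA, an isomerase of the pentose phosphate pathway, was lower by -2.56 ± 0.25 (edgeR adjusted p = 5.42e-07). MTHFD1 and IDH1, which can make NADPH in the cytosol, were the genes that rose, by 0.77 ± 0.16 (edgeR adjusted p = 0.000814) and 0.93 ± 0.24 (edgeR adjusted p = 0.00395). NNT, the mitochondrial transhydrogenase that makes NADPH, rose from GD100 to GD124 by 0.51 ± 0.16 (edgeR adjusted p = 0.0199), and not with library totals as the only scaling (adjusted p = 0.136) or without GD100 replicate 1 or 3 or GD124 replicate 2 or 4.

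Of 11 genes of the selenoprotein list 5 rose and 3 fell. SELENOP, the selenium carrier that liver secretes into plasma, rose at both steps without overlap, from 608 ± 305 (SD, n = 4) through 1659 ± 232 (SD, n = 5) to 3123 ± 745 CPM (SD, n = 6), or by 2.36 ± 0.29 (edgeR adjusted p = 5.32e-06). EEFSEC, the elongation factor that brings selenocysteine to the ribosome, was lower by -0.73 ± 0.15 (edgeR adjusted p = 0.000531). All 3 genes of the methionine sulfoxide reductase list rose, MSRB2 by 1.47 ± 0.26 (edgeR adjusted p = 0.000163) and MSRB3 by 1.09 ± 0.24 (edgeR adjusted p = 0.00089). Not all of these calls held with GD100 replicate 1 alone. MSRB1, a further such reductase counted in the selenoprotein list, rose by 0.655 ± 0.208 (edgeR adjusted p = 0.0134).

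Of 16 peroxisome biogenesis genes, which build the organelle that holds catalase, 8 rose and 1 fell, and with GD100 represented by replicate 1 alone the numbers were again 8 and 1, though not for the same genes. PEX3, which starts the membrane of the organelle, rose by 1.60 ± 0.16 (edgeR adjusted p = 4.46e-07), and PEX11A, which drives its division, by 1.53 ± 0.34 (edgeR adjusted p = 0.00125), a call lost with GD100 replicate 1 alone (1.25, adjusted p = 0.141). PEX6, part of the machinery that recycles the import receptor, was the gene that fell, by 0.51 ± 0.14 (edgeR adjusted p = 0.00579). From GD100 to GD124 PEX16 fell by 0.40 ± 0.13 (edgeR adjusted p = 0.0282). The PEX16 call ended in 8 alternatives, among them GD100 replicate 1 alone (adjusted p = 0.0659), no filter on low counts (adjusted p = 0.0529) and the fits without GD100 replicate 1 or 3 or GD124 replicate 1 or 2. For the whole list in that step, 6 rose (against 16.6% of all genes) and 1 fell (against 17.4%) in the full fit. With library totals as the only scaling 3 rose and 2 fell. Of all genes that scaling called 1805 higher and 4055 lower, against 2825 and 2949 in the full fit.

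**Figure D5:**
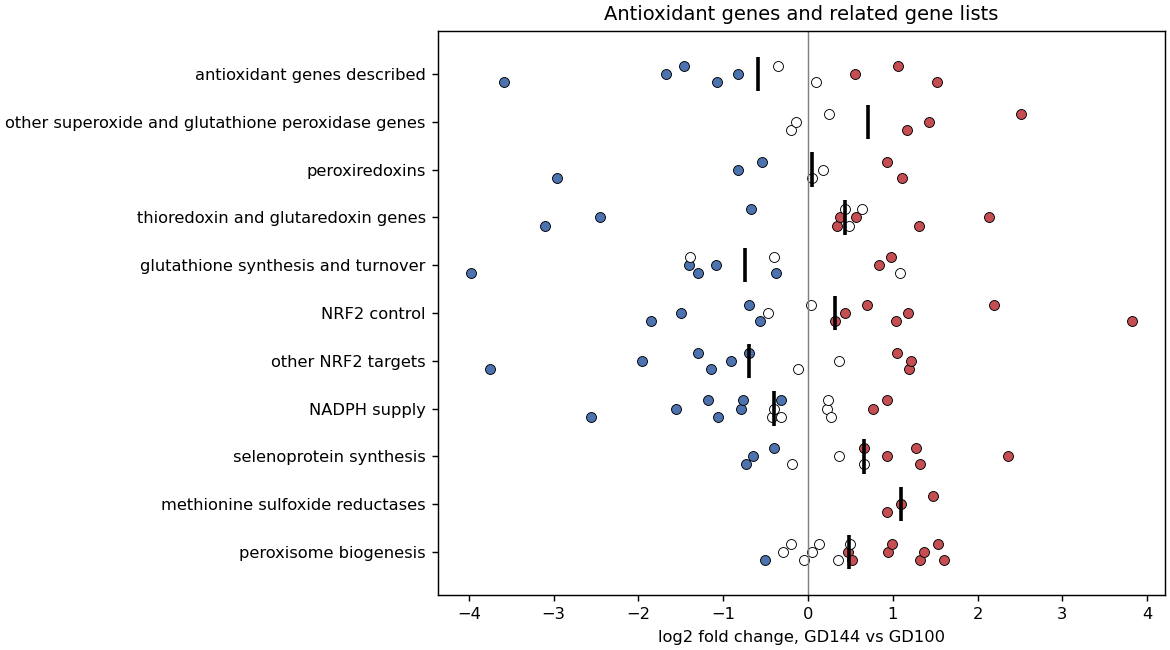
Log2 fold change, GD144 against GD100, of each gene of the antioxidant set and of 10 related pathway lists; red points were called higher and blue points lower by the edgeR test, open points were not called, and black bars are medians over the genes tested. The medians run from -0.74 in the glutathione list to 1.09 in the methionine sulfoxide reductase list, against 0.03 over all genes tested.

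Of the genes named beyond the 10 and checked for overlap, GPX3, TXNIP, TXNRD2, GGACT, CHAC2, BTRC, NNT, MTHFD1, EEFSEC, PEX11A, KEAP1, TXN, SLC7A11 and CERS2 overlap another annotated gene in ARS-UI_Ramb_v3.0, so their counts carry the same uncertainty as those of TXNRD1 and NFE2L2. SOD3, MSRB1 and the marker genes were not checked.

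The profile of each member over the 15 libraries was set beside those of 8203 other genes, with the root mean square difference of centred log2 CPM as the measure of likeness. For GPX1 the closest was NT5C3A (0.215), and FEN1 (0.234) was also among the 3 closest. For CAT they were HERPUD1 (0.173), ACAA2 (0.221) and ETHE1 (0.222). For GCLC, GCLM, GSR and TXNRD1 the closest genes were TP53I13 (0.158), LNPK (0.17), TRA2B (0.144) and PPM1G (0.138), and for SOD1, SOD2 and NFE2L2 they were HSBP1 (0.134), UTP18 (0.283) and CERS2 (0.129). No member was among the 3 closest genes of another. The closest pair of members was GSR and TXNRD1 (0.284) and the farthest was CAT and GPX1 (2.20). This measure also depends on how widely a gene varies, so genes that vary little lie close to each other. Among members with any stage difference the SD of log2 CPM ran from 0.325 (NFE2L2) to 1.63 (GPX1).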

How the data were processed

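Livers of fetal sheep gave 15 libraries, 4 at GD100, 5 at GD124 and 6 at GD144. The authors deposited 1 table of estimated counts of reads per gene. The submitters' processing notes name DRAGEN, a platform for mapping and counting reads. The version, the build, the gene models and the use of strand were not given in the sources used here. Fractional values made up 6.55% of the table (among the 10 genes only those of GSR, in all 15 libraries), and rounding to whole numbers moved a library's total by at most 27.9 reads. Counts are not divided by transcript length, so levels, ratios and marker sums of different genes do not give relative numbers of transcripts. No sequence of these genes was used here.

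Tests used edgeR 4.0.16 (limma 3.58.1, R 4.3.3), its robust quasi-likelihood F test and TMM factors, in 1 model of stage over all 15 libraries. After filterByExpr 16977 genes remained. P-values were adjusted by Benjamini-Hochberg over all of them within a comparison, with a threshold of 0.05, and a gene past it is said to have risen, fallen or been called. A standard error is the size of the log2 fold change over the square root of F. Ratios of members used log2 of counts plus 0.5 and exact two-sided permutation tests.

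The named genes are the 10 members, from each pathway list the called gene with the largest rise and the largest fall in each comparison where the higher stage reached at least 1 CPM, and 9 partner genes, and some of the genes so chosen are not reported here. The 3 closest profiles were sought for members with any stage difference, among named genes with a mean of at least 10 CPM. Members, lists and tests were chosen with earlier results of these data known. The levels of CAT and GPX1 per marker were added after the values were seen. Alternatives were RLE factors, library totals alone, TMM without the 20 most abundant genes or without erythroid and alpha globin genes, no filter, at least 1 CPM in at least 4 libraries, DESeq2 1.42.0, the 2 stages alone, a replicate block, each library left out, and GD100 represented by replicate 1 alone. With that last choice, and wherever a stage is left with 1 library, that library's spread is taken to be that of the others. No pair of replicates was a duplicate (lowest chi-square per degree of freedom 43.7).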

Additional observations from a re-analysis of the deposited data

Results flagged for a closer look

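In each of the 10 genes and 3 stages, 30 groups in all, the highest and the lowest library were compared with their nearest neighbour by Dixon's gap test, which chance passes in about 1 of 20 groups. It picked out 3 values, all in GD144 replicate 3. GPX1 was at 231.1 CPM there, with the next library at 87.8 CPM and the lowest at 63.9 CPM. GCLM was at 65.98 CPM, with the next at 47.7 CPM. NFE2L2 was the lowest of its stage at 48.22 CPM, with the next at 61.0 CPM. The same library had an erythroid marker sum of 935 CPM, against 108 to 168 CPM in the other GD144 libraries, and the part of that in these values was not tested.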

How the results depend on the processing

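Of the fold changes of the 10 genes, 920 values under alternatives kept their direction and call, 23 gained a call, 22 lost one and 25 changed sign, none of them a called change. With the replicate number as a block (replicate block), edgeR called 5, 4 and 8 of the 10 genes in GD124 against GD100, GD144 against GD124 and GD144 against GD100. For any stage it called 8 and for the difference between steps 0. In the full fit the shares of all genes were 34.0%, 27.5%, 55.0%, 56.3% and 5.90% in that order. Except for the difference between steps, the block changed the number of all genes called by no more than 1.5-fold. SOD1 between GD124 and GD144 was lost with the block (edgeR adjusted p = 0.0877), and GPX4 to GD124 turned to 0.048. Same-numbered libraries share only a number: over 13 pairs the correlation of their deviations ran from -0.155 to 0.144, and 2 of 15 libraries correlated best with their own number. Of all genes the block called 325 for the difference between steps and DESeq2 1816, against 1002, and 379 to 1743 with 1 library left out. With library totals alone the median log2 fold change of all genes was -0.164 to GD124 and 0.071 from GD124 to GD144, the share of called genes that were higher moved from 48.9% to 30.8% and from 43.9% to 54.1%, SOD1 to GD124 was -0.057, and the differences between steps were 0.146 for SOD2 and 0.125 for GSR.

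With GD100 represented by replicate 1 alone, 3167 genes (5774 in the full fit) and 2 of the 10 members were called to GD124. SOD1 to GD124 was then -0.131, GCLM to GD124 0.114, GPX4 to GD144 -0.481, and the differences between steps 0.028 for CAT and 0.32 for SOD2. The ratio differences were -0.922 and -0.768 for GCLC to GCLM (to GD124 and GD144) and 0.261 and 1.208 for SOD2 to SOD1. Leaving out 1 library at a time, 3 to 6 members and 4169 to 6234 of all genes were called to GD124. The ranges were -0.023 to 0.208 for SOD1, -0.213 to 0.256 for GPX4 to GD124 and -0.075 to 0.363 to GD144, and -0.033 to 0.114 for NFE2L2 from GD124. The differences between steps ran from -0.393 to 0.021 for CAT, -0.292 to 0.277 for SOD2, -0.149 to 0.352 for GPX4 and -0.194 to 0.033 for GSR. Ratio differences ran from -0.248 to 0.289 and -0.093 to 0.443 for GCLC to GCLM (to GD124 and GD144), 0.3 to 0.581 for SOD2 to SOD1 and 1.092 to 1.926 for GPX4 to GPX1 to GD124, where adjusted exact permutation p reached 0.0856. The cause of these shifts was not tested.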
